A study of Mus musculus with 20 samples.

Results

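The chromatin of 7 genes of myoblast fusion was examined in C2C12, an established line of mouse myoblasts whose cells fuse into myotubes when they differentiate. The genes were the fusion factors Mymk and Mymx and the adhesion genes Cdh15, Jam2, Jam3, Kirrel and Nphs1. Every ATAC-seq peak within 10 kb of the span of these genes in the GRCm38 gene table was taken. ATAC-seq uses a transposase that cuts and tags accessible DNA, and a peak marks a stretch with more insertions than its surroundings. Peaks of the 20 libraries that shared at least 1 bp were merged into regions, and a library was taken to call a region if at least 1 of its peaks touched it. The 7 genes had 68 such regions, built from 578 deposited peaks, out of 101352 regions and 787806 peaks in all.

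The cells were wild type (WT) or Setd2 knockout (KO), Setd2 being the gene of a histone methyltransferase that places trimethylation on H3K36. All libraries came from C2C12 cells. The 3 days were D0, D1 and D5, and the last pair of days had both control conditions (CTL) and methionine restriction (MR), which makes 10 groups of 2 libraries. WT had replicates 1 and 2, and KO had 2 lines with a library each, here line 1 and line 2, whose own difference is part of the KO spread. The same 2 lines recur in all 5 combinations of day and medium, so the 10 KO libraries are not 10 independent samples, while the genotype tests treat them as such. A test with the line as its unit, 2 against 2, cannot reach 0.05 and was not run. How the lines were made, and whether each is a single clone, is not given in the labels, and neither is whether the WT replicates were separate cultures, so p-values measure only the spread between these libraries.

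The lists held 644 to 69881 peaks. The background pileup, a measure of depth recovered from each list, was 1.42 to 5.88 fragments per position in 18 libraries, called the libraries of usual depth below. Among them KO line 2 had the lowest pileup in every day and medium. It was 2.52 at D0, 2.3 at D1 CTL, 2.76 at D1 MR, 1.84 at D5 CTL and 1.42 at D5 MR. In the same order the WT libraries had 4.71 and 5.38, 3.17 and 3.22, 3.53 and 3.17, 5.29 and 5.88, and 5.17 and 5.45. The D5 libraries of KO line 1 had a pileup of 0.128 (CTL) and 0.101 (MR), with 644 and 1881 peaks. A missing call there cannot tell a closed site from a site below detection at this depth. The tests with all libraries count it as no call. An end of Setd2 itself was called in all 18 libraries of usual depth, WT and KO, and such a call does not check the knockout. Of the skeletal myoblast markers, Des and Chrna1 were called at a gene end in all 18, Myod1 and Itga7 in 17, and Myf5 and Pax7 in none. Markers of other cell types were mostly uncalled at their ends, with calls in all 18 for Spi1, in 17 for Pparg, in 16 for Col1a1 in 9 for Krt8, in 3 for Snap25 and in 1 for Thy1. From the same lists of other cell types, Ptprc, Cd3e, Adipoq, Fabp4, Epcam, Cdh1, Pdgfra, Pecam1, Cdh5, Kdr and Rbfox3 had no call. Syt1, a synaptic vesicle gene, was called in 0 WT and 8 KO libraries. A peak at a gene end is not a measure of expression.

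Myoblasts fuse into multinucleated fibres after they leave the cell cycle and start the muscle programme. Cadherins and immunoglobulin-domain proteins bring the membranes into contact, and a pair of muscle-specific proteins then completes the merger. Mymk (myomaker) is a membrane protein with several spans that fusing cells need, and Mymx (myomixer, also called myomerger or minion) is a small membrane protein that acts with it to open the fusion pore. Their genes are targets of MyoD and myogenin, factors that bind the E-box CANNTG. In bulk libraries, fewer cells with an open site and a less open site in each cell cannot be told apart.

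The upstream sequences of RefSeq genes (GRCm38.p6) were matched by symbol, and 3 of the 7 genes had an entry: Cdh15, Kirrel and Nphs1. The sequences of Cdh15 and Nphs1 are shown because they are the contrast between a start called in all libraries of usual depth and a start called in none. They are the 250 bases before each annotated start on the plus strand, chr8:122848124-122848373 for Cdh15 and chr7:30459808-30460057 for Nphs1, with E-box letters CANNTG in capitals.
Cdh15: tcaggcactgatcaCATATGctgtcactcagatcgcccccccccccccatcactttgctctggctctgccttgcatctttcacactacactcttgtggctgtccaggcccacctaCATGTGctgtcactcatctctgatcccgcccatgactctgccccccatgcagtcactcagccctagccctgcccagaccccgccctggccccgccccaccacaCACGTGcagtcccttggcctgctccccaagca
Nphs1: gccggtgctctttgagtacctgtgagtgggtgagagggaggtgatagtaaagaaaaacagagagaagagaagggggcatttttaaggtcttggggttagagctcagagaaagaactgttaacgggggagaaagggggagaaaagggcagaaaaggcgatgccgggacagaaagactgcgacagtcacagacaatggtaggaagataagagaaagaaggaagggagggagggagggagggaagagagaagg
The Cdh15 stretch held 3 matches, and region 1 of Cdh15 covered 174 of its 250 bases. The Nphs1 stretch held 0 matches, and no peak of any library overlapped it. Kirrel's window on the minus strand also held 0, although region 20 of Kirrel covered all 250 bases of it. That window lies mostly within Kirrel's span in the gene table and is not printed. The Nphs1 window lies wholly within the Nphs1 span of the gene table, 30458207 to 30488623. The Cdh15 window ends just before the Cdh15 span. Over 32851 promoter windows of the same length, 66.2% held CANNTG. None of the 3 windows held the variants CAGCTG (13% of all windows) or CAGGTG (17.2%), the AP-1 motif TGANTCA (6.75%), the TEAD motif GGAATG (12.6%), the MEF2 motif (2.92%) or the SRF CArG motif (1.47%), searched on both strands. A missing match says only that these letters are not in the window.

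The 68 regions were spread unevenly. Kirrel had 22, Mymk and Cdh15 had 12 each, Jam2 had 11 and Mymx had 9. Jam3 and Nphs1 had 1 each. Over 21631 protein-coding genes the median was 3 regions within 10 kb. Kirrel exceeded 98.0% of genes, Mymk and Cdh15 92.2%, Jam2 90.6%, Mymx 86.2%, and Jam3 and Nphs1 22.6%. Gene length differs widely, from a span of 1236 bp for Mymx to 96185 bp for Kirrel, so these counts are not densities. The regions had a median length of 270 bp against 172 bp over all regions, and 40 of them overlapped a gene span while 28 lay outside. At the limit of the window, region 22 of Kirrel lay 10000 bp from the span and was called in 1 library, and the nearest region beyond the limit, 13108 bp from Cdh15, was called in 14.

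WT libraries made 353 calls over the 68 regions and KO libraries made 216, of which 109 came from line 1 and 107 from line 2. The 2 shallow libraries of line 1 made 1 call each. The genes contributed unequally. Mymk had 85 WT calls and 22 KO calls, Mymx 58 and 28, and Cdh15 64 and 26. Jam2 had 53 and 48, and Kirrel 88 and 91. There were 20 regions with no KO call, 15 of them with calls in 2 or more WT libraries, and 9 with no WT call. Of the 68, 9 were called in 1 library alone, 5 of them at Kirrel, and such a region always falls to 1 genotype. The same counts were not made over all regions, so all these counts are description only. The regions that only WT libraries called lay mostly at Cdh15 (8) and Mymk (5), and those that only KO libraries called lay mostly at Kirrel (6). In this count the fusion factors and Cdh15 had fewer KO than WT calls, and Jam2 and Kirrel had similar numbers. Over all 101352 regions, WT libraries made 426984 calls and KO libraries 329057.

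**Figure D1:**
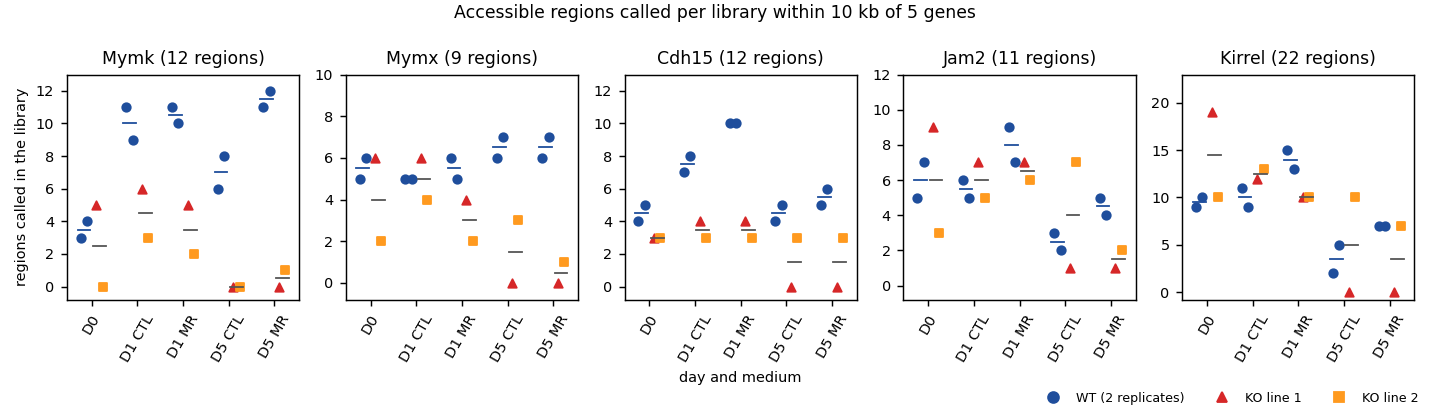
Number of regions called in each library (vertical axis) by day and medium (horizontal axis) for the 5 genes with more than 1 region; points are single libraries and short lines the mean of a group of 2. WT libraries of D1 and D5 called 6 to 12 of the 12 Mymk regions, and KO libraries of usual depth 0 to 6, while for Kirrel the points of the genotypes do not overlap at D1 CTL, where KO is higher, or at D1 MR, where WT is higher. How many other genes show such splits was not counted.

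Calls were compared between genotypes with an exact permutation test of WT and KO labels within the 5 combinations of day and medium, with Benjamini-Hochberg adjustment over the 18700 regions that can reach 0.05 with their number of calls. Among the 68 regions, 21 could be tested: 10 of Mymk, 4 of Mymx, 2 each of Cdh15, Jam2 and Kirrel, and 1 of Jam3. Of the 21, 7 passed, all with fewer calls in KO. Over all regions tested, 16.1% passed with fewer calls in KO and 2.73% with more. The median difference in the share of libraries with a call (KO minus WT) was -0.50 over the 21 and -0.30 over all regions tested, and it was negative for 19 of the 21 and for 73.7% of all. The 7 regions were Mymk regions 2, 4 and 7, Mymx regions 5 and 6, and Cdh15 regions 2 and 5. None of the 5 regions of Jam2, Jam3 and Kirrel that could be tested passed. At an unadjusted p under 0.05 there were 14 of the 21 and 9506 of all 18700. Without the 2 shallow D5 libraries of KO line 1, 3 regions passed (Mymk region 4, Mymx region 5 and Cdh15 region 2, each with an adjusted exact p of 0.0403), and the other 4 had adjusted p from 0.0504 to 0.054, where 2257 of all 19646 regions tested passed. In another alternative the deeper lists were reduced to the recovered background of the shallowest library of usual depth, with the 2 shallow lists left as they were. In these reduced lists 0 members passed, as did 0 of all 9288 regions tested, with 6 and 4218 at an unadjusted p under 0.05. With the reduced lists and the 2 shallow lists left out, 4 of the 10 members that could be tested passed, where 2398 of all 12093 did. Mymk region 9 and Mymx region 5 had fewer calls in KO (both adjusted exact p 0.0467), and Kirrel regions 6 and 21 had more (adjusted exact p 0.0294 and 0.0389). When the D5 libraries were left out, 2 members could be tested and 0 passed, where 1347 of all 7182 did. Without WT replicate 1, WT replicate 2 or KO line 2 throughout, 0 members passed, as did 0 of all 16413, 17057 and 12182 regions tested. Without KO line 1 throughout, 6 members and 3279 of all 13261 passed.

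**Figure D2:**
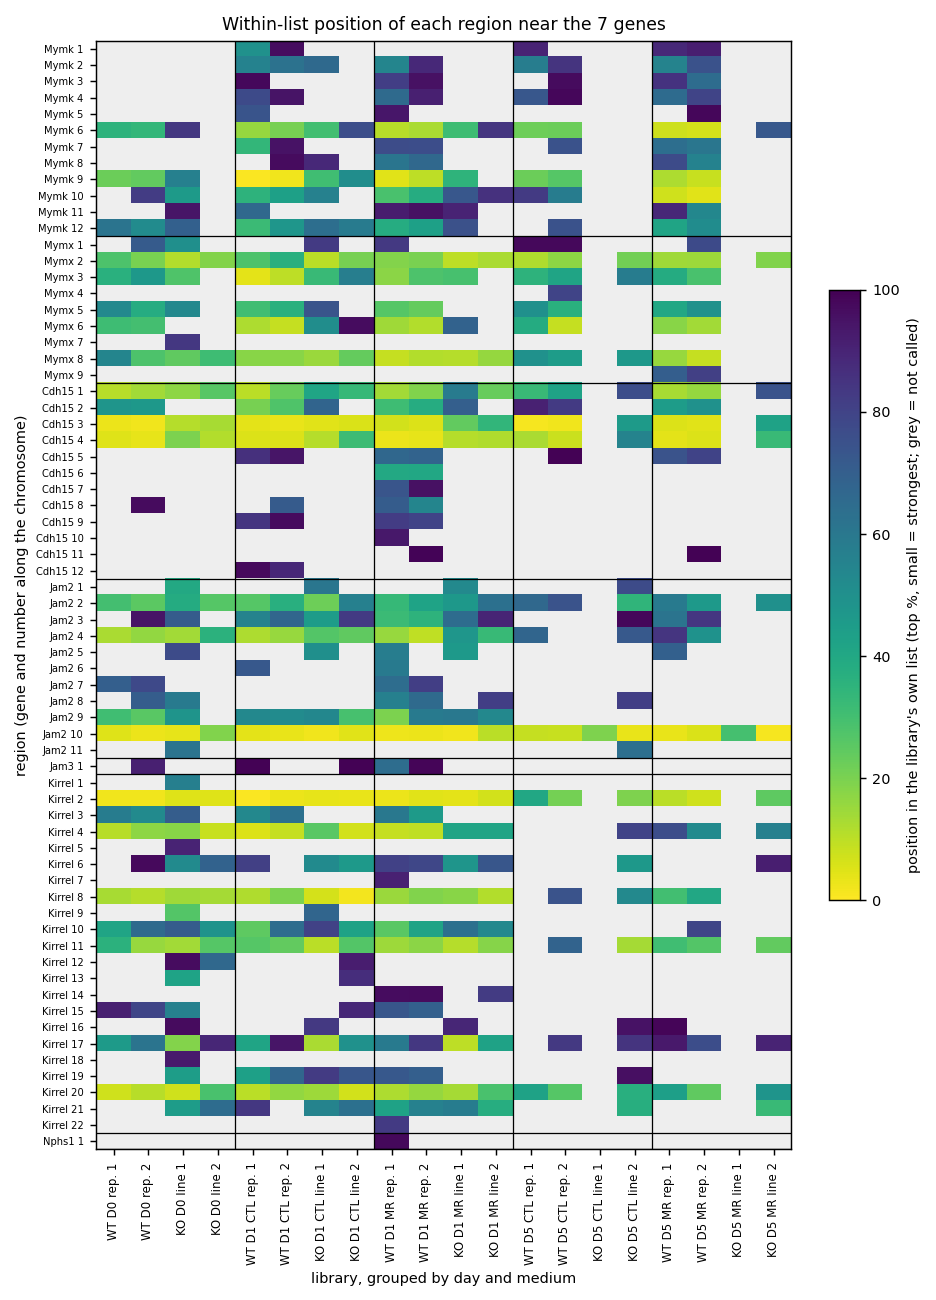
Each row is 1 of the 68 regions, numbered along the chromosome, each column 1 of the 20 libraries, and the colour is the place of the region in the library's own list ordered by −log10 p (yellow strongest, grey not called). Columns of KO line 1 at D5 hold 1 call each, at region 10 of Jam2, and the upper Mymk rows are grey in most KO columns.

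Mymk lies on chromosome 2 from 27061636 to 27072161. Its regions formed a cluster on the lower-coordinate side (regions 1 to 5), a cluster around the upper-coordinate end (6 to 9) and a group beyond it (10 to 12). The gene table gives no strand, so ends are named by coordinate. The number of Mymk regions called in WT was 3 and 4 at D0, 11 and 9 at D1 CTL, 11 and 10 at D1 MR, 6 and 8 at D5 CTL and 11 and 12 at D5 MR. In KO, line 1 called 5 at D0, 6 at D1 CTL and 5 at D1 MR, and line 2 called 0, 3 and 2. At D5 line 2 called 0 in CTL and 1 in MR. Its pileup there was 1.84 and 1.42, against 5.17 to 5.88 in the WT libraries of D5. Its lists held 29963 peaks in CTL and 22062 in MR, against 22465 and 20847 in WT CTL and 39538 and 39263 in WT MR. The part of depth in these counts was not tested. At D1 and D5 every WT library called more Mymk regions than the KO libraries of the same day and medium, and at D0 the groups overlapped. At D5 the KO libraries include the 2 shallow lists of line 1. KO libraries also made fewer calls over all regions, and how many other genes show such a split was not counted.

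Region 9 of Mymk covers the upper-coordinate end, from 27071954 to 27072256, and was called in all 10 WT libraries and 4 KO libraries. Its place in a library's own list is given as the percent of regions at least as strong, so small values are strong. Such places come from lists of different lengths and describe each list without showing a change. In WT it lay in the top 22.6% and 24.1% at D0, in the top 0.465% and 2.09% at D1 CTL, and in the top 4.67% and 9.99% at D1 MR. At D5 it lay in the top 22.6% and 26.2% in CTL and 12.3% and 8.25% in MR. In WT D1 CTL replicate 1 it was number 261 of the whole list. In KO line 1 it lay in the top 56.6% at D0, 30.6% at D1 CTL and 34.8% at D1 MR, and in line 2 it was called at D1 CTL alone, in the top 50.9%. The weakest WT place, 26.2%, was stronger than the strongest KO place, 30.6%, with 4 KO lists giving a place. How many of all regions show such a gap was not counted. The difference of calls had an exact permutation p of 0.0139 and an adjusted p of 0.0507, which misses the threshold. It passed with the 20000 strongest peaks of each list (adjusted exact p 0.0293), with a −log10 q of at least 2 (0.0496), without KO line 1 (0.0499), with a block on all replicate numbers (0.0469) and, as given above, in the reduced lists without the shallow ones. It did not pass or could not be tested in the other alternatives run, with 0.0646 in the reduced lists and 0.0681 without the shallow libraries. With the 20000 strongest peaks, the 2 shallow lists kept their 644 and 1881 peaks, and 1693 of all 10794 regions tested passed. The block on all replicate numbers paired WT and KO libraries by number alone, and 5482 of all 8234 passed there.

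Region 6, inside the Mymk span, was called in 10 WT and 6 KO libraries. In WT its place ran from the top 6.49% in D5 MR replicate 2 to the top 35.5% in D0 replicate 1, with a median of 18.1%. In KO it ran from 30.4% to 84.5%, with a median of 74.2%. The places of the 2 genotypes overlapped only between the WT D0 libraries and line 1 at D1. With the lists as deposited its calls do not allow a p of 0.05 or lower. With the 20000 strongest peaks of each list it had 10 WT and 3 KO calls and passed (adjusted exact p 0.0443). In that setting the 2 shallow lists of line 1 still held 644 and 1881 peaks, so the lists were not equal in size.

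Region 4 of Mymk, 1340 bp outside the span on the lower-coordinate side, was called in 8 WT libraries, all those of D1 and D5, and in 0 KO libraries (exact permutation p 0.00154, adjusted p 0.0353). Region 2 was called in the same 8 WT libraries and in 1 KO library, line 1 at D1 CTL (adjusted exact p 0.0412). Region 7, inside the span, was called in 7 WT libraries and 0 KO libraries (adjusted exact p 0.0412). None of the 3 was called at D0 in either genotype. Where WT libraries called them, region 4 lay between the top 64.9% and the top 98.1%, region 2 between 54.3% and 88.6%, and region 7 between 33.6% and 95.0%. Region 1 was called in 5 WT and 0 KO libraries (adjusted exact p 0.0666) and region 3 in 6 and 0 (0.0507). Region 8 was called in 5 and 1 libraries (adjusted exact p 0.221).

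Beyond the upper end, region 10 of Mymk was called in 9 WT and 4 KO libraries and lay in the top 7.23% and 4.42% of the WT D5 MR lists, against 83.2% and 58.1% in WT D5 CTL. Region 11 was called in 5 and 2 libraries. Region 12 overlaps the neighbouring gene Adamtsl2, with its midpoint 85 bp from an end of that gene. It was called in 9 and 4 (adjusted exact p 0.082). These 3 did not pass the test.

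**Figure D3:**
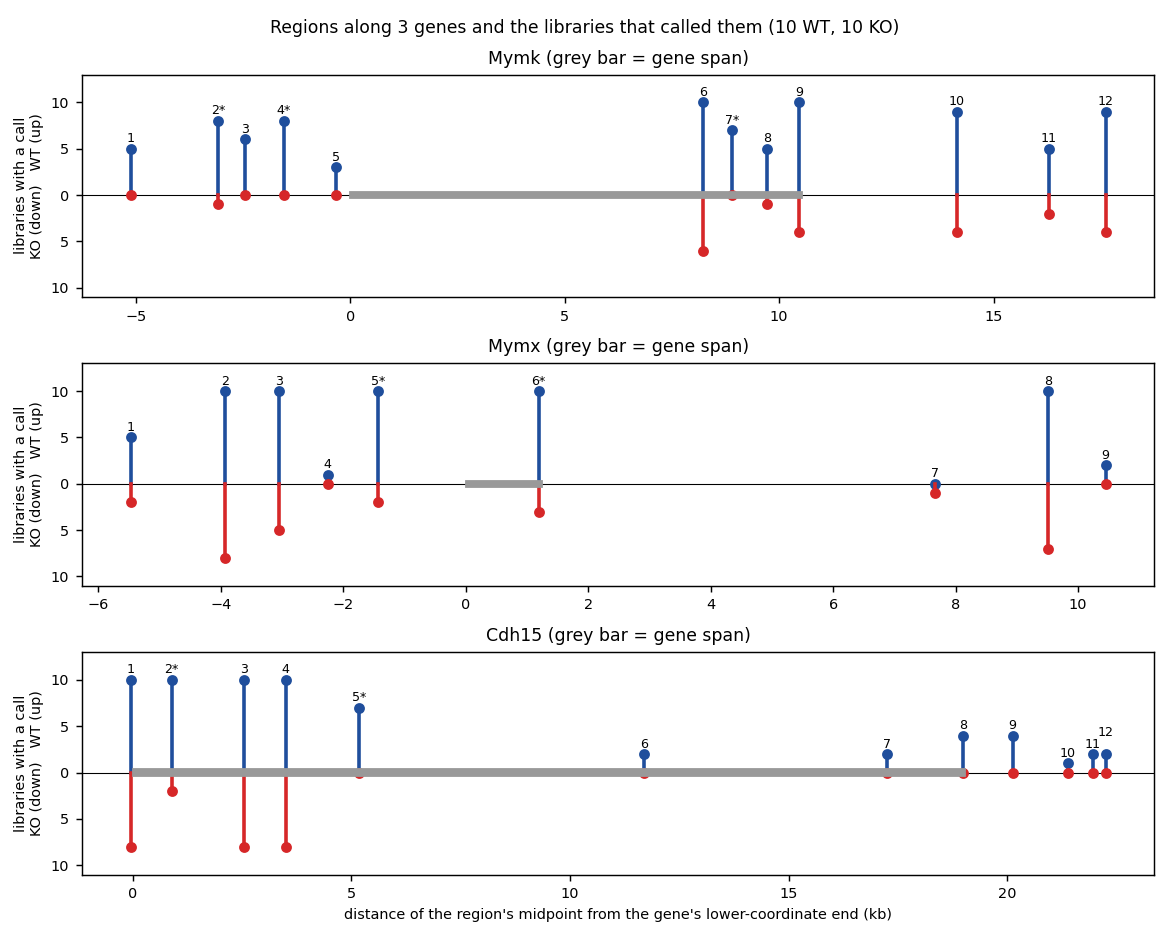
Regions of Mymk, Mymx and Cdh15 by distance from the lower-coordinate end of the gene in kb (horizontal axis), with the number of WT libraries that called each one upward and of KO libraries downward; numbers name the regions and a star marks an adjusted p of 0.05 or lower for fewer calls in KO. Mymk regions 1, 3, 4, 5 and 7 have no KO call, and Cdh15 regions 1, 3 and 4 have 10 WT and 8 KO calls.

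Mymx, on chromosome 17 from 45600961 to 45602196, had 9 regions. WT called 5 and 6 of them at D0, 5 and 5 at D1 CTL, 6 and 5 at D1 MR, 6 and 7 at D5 CTL and 6 and 7 at D5 MR. Line 1 called 6, 6 and 4 at D0, D1 CTL and D1 MR, and line 2 called 2, 4 and 2. Unlike at Mymk, the number in WT was nearly as high at D0 as later, a difference between the genes that was not tested. Line 1 called as many regions as the higher WT library at D0 and more than both WT libraries at D1 CTL.

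Region 6 of Mymx covers the upper-coordinate end, from 45601963 to 45602337, and was called in 10 WT and 3 KO libraries (exact permutation p 0.00463, adjusted p 0.0412). Its WT place was the top 31.2% and 29.9% at D0, 12.3% and 8.90% at D1 CTL and 14.1% and 11.7% at D1 MR. At D5 it was 38.6% and 8.60% in CTL and 17.7% and 14% in MR. In KO it was called at D1 alone, in the top 50.8% and 96.5% in CTL (line 1 and line 2) and in the top 68.5% in MR (line 1). No KO library placed it as high as any WT library did, but only 3 KO lists gave it a place. The lists differ in length, and how many of all regions show such a gap was not counted.

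Region 5 of Mymx was called in 10 WT libraries and in 2 of line 1, at D0 and D1 CTL (adjusted exact p 0.0353). It also overlaps Slc29a1, a nucleoside transporter gene, with its midpoint 91 bp from an end of that gene, so it belongs to both windows. Region 3, which also overlaps Slc29a1, was called in 10 and 5 libraries. It reached the top 4.14% in WT D1 CTL replicate 1 and had an adjusted exact p of 0.082. Region 2, inside Slc29a1, was called in 10 and 8, and region 8 in 10 and 7. Region 1, also inside Slc29a1, was called in 5 and 2. Chromosome 17 as a whole was called less in line 2: of the chromosome 17 regions called in both WT libraries, line 2 called 55.7% at D0, 68.1% at D1 CTL and 49.1% at D1 MR, against 65.4%, 75.6% and 56.3% over all chromosomes. In line 1 the values were 87.3%, 80.2% and 64.9% against 88.1%, 82.7% and 68.1%. The part of this chromosome-wide difference in the Mymx calls was not tested.

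Cdh15 codes for M-cadherin, the calcium-dependent adhesion molecule of muscle precursors, and lies on chromosome 8 from 122848374 to 122867397 on the plus strand. Regions 1, 3 and 4, at the start and in the first part of the gene, were called in all 18 libraries of usual depth. WT called 4 and 5 of the 12 regions at D0, 7 and 8 at D1 CTL, 10 and 10 at D1 MR, 4 and 5 at D5 CTL and 5 and 6 at D5 MR. Line 1 called 3, 4 and 4 at D0, D1 CTL and D1 MR, and line 2 called 3 in each, and 3 again in D5 CTL and D5 MR. Within each day and medium no KO library called as many Cdh15 regions as a WT library. At D5 this includes the 2 shallow lists of line 1. KO libraries also made fewer calls over all regions, and how many other genes show such a split was not counted.

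Region 1, which covers the start from 122848200 to 122848458 and overlaps the upstream sequence shown above, lay in the top 10.5% to 42.4% in WT and in the top 16.8% to 76.3% in KO. Region 2, 887 bp after the start, was called in 10 WT libraries and in line 1 at D1 CTL and D1 MR (exact permutation p 0.00231, adjusted p 0.0353). Its WT place was between the top 20.7%, in D1 CTL replicate 1, and the top 91.0%, in D5 CTL replicate 1. The KO places were 67.6% and 69.9%, weaker than every WT library but those of D5 CTL.

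Region 3 of Cdh15, 2552 bp after the start, was among the strongest regions of the set. WT placed it between the top 1.52% (D5 CTL replicate 1) and 6.89% (D1 MR replicate 1). KO placed it at 11.2% and 13% at D0, 4.50% and 5.80% at D1 CTL and 23.9% and 34.2% at D1 MR, each for line 1 and line 2. Line 2 placed it at 45.4% in D5 CTL and 42.5% in D5 MR. Only the D1 CTL lists of KO reached the WT range. The lists differ in length, and how many of all regions have such places was not counted.

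Region 4, 3500 bp after the start, lay in the top 2.81% to 12.8% in WT, with a median of 5.06%. In KO it lay in the top 11% to 55.4%, with a median of 15.9%. Region 5, further inside, was weak, with 7 WT calls at D1 and D5 and 0 KO calls (adjusted exact p 0.0412). Regions 8 and 9, at and beyond the upper end, were called in 4 WT libraries each and in 0 KO libraries. Neither had calls that allow a p of 0.05. Over regions called at D0 and D1 in every library, the median rank shift of chromosome 8 in KO was 0.514 percentile points.

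**Figure D4:**
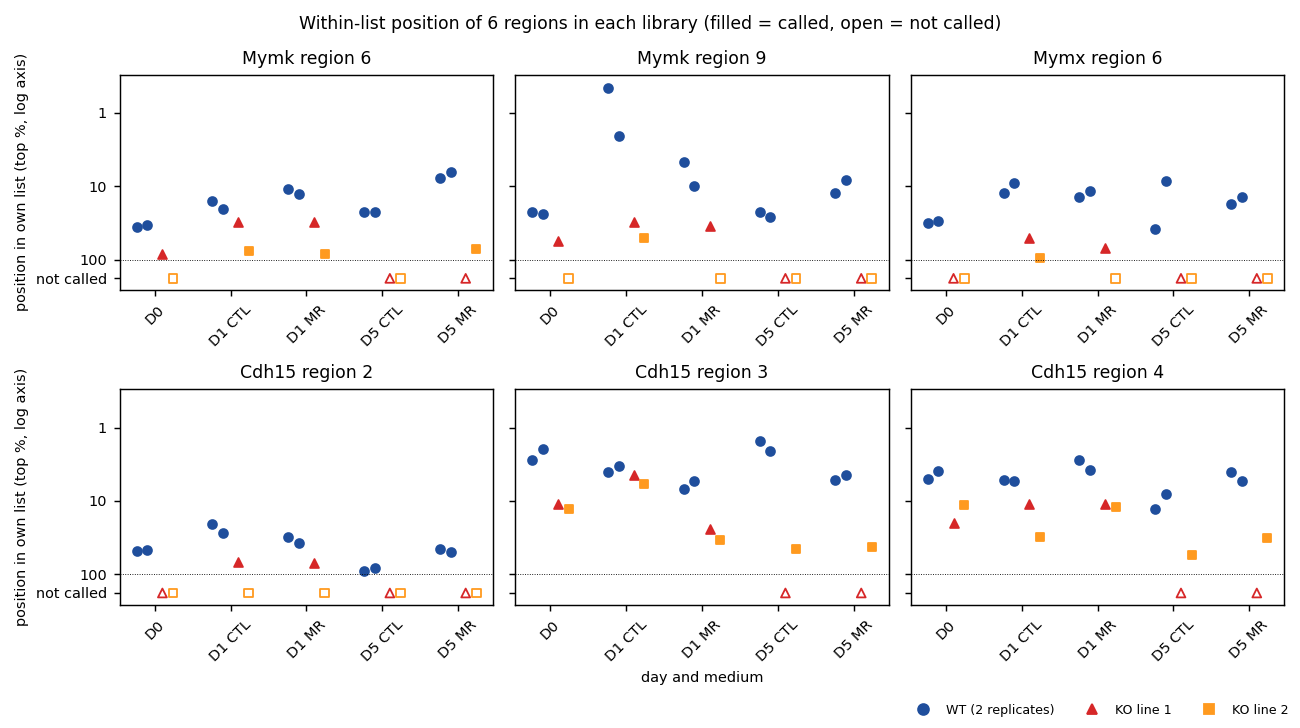
Place of 6 regions in each library's own list (vertical log axis, top percent, strong at the top) by day and medium (horizontal axis); open symbols at the bottom are libraries without a call. For Mymk region 9 and Mymx region 6 all 10 WT points lie above every KO point, and Cdh15 region 3 in KO meets the WT range only at D1 CTL. The lists differ in length, and how many of all regions look like this was not counted.

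Jam2 codes for a junctional adhesion molecule with immunoglobulin domains, on chromosome 16 from 84774123 to 84826380. WT called 5 and 7 of its 11 regions at D0, 6 and 5 at D1 CTL, 9 and 7 at D1 MR, 3 and 2 at D5 CTL and 5 and 4 at D5 MR. Line 1 called 9, 7 and 7 at D0, D1 CTL and D1 MR and line 2 called 3, 5 and 6, with 7 and 2 at D5 CTL and D5 MR. The genotypes overlapped in all conditions but D5 MR, where the list of line 1 is shallow. Region 2, at the lower-coordinate end from 84773983 to 84774541, was called in all 18 libraries of usual depth, in the top 25.0% to 74.4% in WT and 22.2% to 63.2% in KO.

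Region 4 of Jam2 was called in 9 WT and 7 KO libraries. Regions 1 (0 WT and 4 KO calls), 5 (2 and 3), 7 (4 and 0) and 8 (3 and 3) were called in few. Region 10 was the only region of the 68 called in all 20 libraries, with a median place in the top 3.77%. It lies 8852 bp beyond the upper-coordinate end of Jam2, across the ends of Atp5j, an ATP synthase subunit gene, and Gabpa, an ETS-family factor gene, so its call is not particular to Jam2.

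Kirrel codes for an immunoglobulin-domain protein related to the fly proteins that let founder myoblasts and fusion-competent myoblasts recognise each other. Its span on chromosome 3 runs from 87078593 to 87174777. WT called 9 and 10 of 22 regions at D0, 11 and 9 at D1 CTL, 15 and 13 at D1 MR, 2 and 5 at D5 CTL and 7 and 7 at D5 MR. Line 1 called 19, 12 and 10 at D0, D1 CTL and D1 MR and line 2 called 10, 13 and 10, with 10 and 7 at D5 CTL and D5 MR. At D1 MR both WT libraries called more than both KO libraries, and at D1 CTL both called fewer. How many other genes show such splits was not counted.

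Region 20, across the annotated start from 87174433 to 87175268, was called in all 18 libraries of usual depth, with a median place in the top 15.9% in WT and 21.7% in KO. Region 2, 5050 bp outside the span on the lower-coordinate side, was the strongest Kirrel region, with its best place in the top 0.7% in WT D1 CTL replicate 1. At D0 and D1 it lay between the top 0.7% and 4.55% in WT and between 3.32% and 6.72% in KO, and at D5 between 7.30% and 39.9% in WT.

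Region 3 of Kirrel was called in 6 WT libraries and 1 KO library (adjusted exact p 0.0666). Region 21, 884 bp beyond the upper end, went the other way with 3 WT and 8 KO calls (adjusted exact p 0.082), and region 6 had 4 and 8. Regions 4, 8, 11 and 17 had 8 or 9 WT and 7 or 8 KO calls, regions 10, 15, 16 and 19 had 7, 4, 1 and 4 WT and 6, 2, 4 and 4 KO calls. Regions 3 and 21 were the only 2 of the 22 that could be tested for genotype, and neither passed with the lists as deposited. In the reduced lists without the shallow ones, region 21 had 2 WT and 8 KO calls and region 6 had 0 and 7, and both passed with more calls in KO. On chromosome 3, line 2 called a larger share of WT regions than over all chromosomes: 71.3% at D0, 81.3% at D1 CTL and 62.4% at D1 MR. Whether this bears on the Kirrel calls was not tested.

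Jam3, a partner of Jam2 in cell adhesion, had 1 region, at its upper-coordinate end on chromosome 9 from 27155232 to 27155533. It was called in WT D0 replicate 2, WT D1 CTL replicate 1, both WT D1 MR libraries and KO D1 CTL line 2, with a median place in the top 98.6%. Nphs1, the gene of nephrin, a binding partner of the Kirrel protein, had 1 region on chromosome 7 from 30492925 to 30493001, called in WT D1 MR replicate 1 alone, in the top 97.9%. That region lies 623 bp from an end of Prodh2. These 2 adhesion genes had no region placed above the top 64.3% of any list.

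Strength could be compared on a common scale among regions that every one of the 12 D0 and D1 libraries called. There were 19629 such regions, and each library's rank percentile among them was used (100 is strongest). The 68 regions contributed 15. In the exact permutation test of genotype within D0, D1 CTL and D1 MR, 0 of the 15 and 0 of all 19629 regions passed after adjustment, so 0% of regions were called in either direction. The smallest p this design allows is 0.00926. At an unadjusted p under 0.05 there were 5 of the 15 and 5151 of all.

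Region 3 of Cdh15 had WT percentiles of 94.4 and 95.3 at D0, 89.3 and 93.0 at D1 CTL and 77.3 and 85.2 at D1 MR. The KO values were 67.7 and 81.1, 86.7 and 87.4, and 49.5 and 46.1. The KO mean was lower by 19.3 points (difference -19.3), with both KO libraries below both WT libraries in each condition (exact permutation p 0.00926, adjusted p 0.0732). Region 4 of Cdh15 had a difference of -23.9 and region 4 of Jam2 of -23.6, with the same p and adjusted p. Region 1 of Cdh15 had a difference of -24.2 (p 0.037, adjusted p 0.154, exact permutation), and in D0 and D1 CTL both KO values were below both WT values.

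Region 2 of Mymx had the opposite sign. Its WT percentiles were 49.2 and 55.1 at D0, 41.4 and 38.6 at D1 CTL and 45.6 and 50.2 at D1 MR, and its KO values were 67.2 and 73.4, 70.4 and 58.0, and 76.6 and 78.7. The difference was 24 (exact permutation p 0.00926, adjusted p 0.0732), while the median shift of chromosome 17 was -3.84. This region lies inside Slc29a1. Region 17 of Kirrel had the largest positive difference of the 15, 31.8, of which line 1 gave 53.7 and line 2 gave 9.89 (p 0.0648, adjusted p 0.215, exact permutation).

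**Figure D5:**
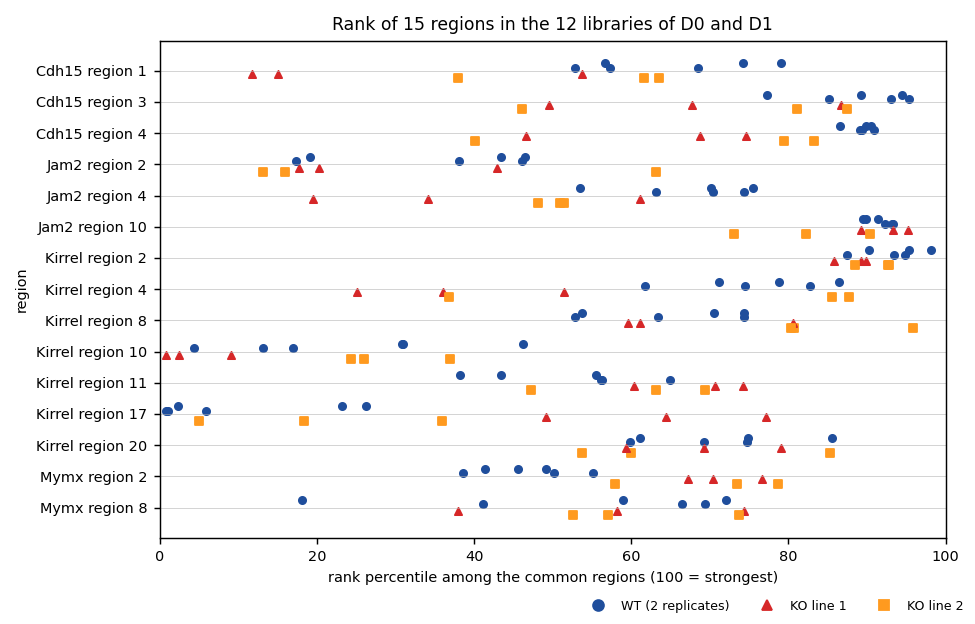
Rank percentile among the common regions (horizontal axis, 100 is strongest) of 15 regions in the 12 libraries of D0 and D1; blue circles are WT, red triangles KO line 1 and orange squares KO line 2. Points of Mymx region 2 lie at 38.6 to 55.1 in WT and 58.0 to 78.7 in KO, and no region passed the adjusted threshold.

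Pairs of groups were also set side by side without a test, since 2 libraries against 2 cannot give an exact p of 0.05. A region was counted as lost when neither library of the group named first called it and both of the group named second did, and as gained in the reverse case. In KO against WT at D0, 3 members were lost (Mymx region 6, Cdh15 region 2 and Jam2 region 7) of 47 called in any of the 4 libraries, where 5.36% of all regions were lost. The 2 gained were Kirrel regions 12 and 21, with 2.51% gained over all regions.

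At D1 CTL, 7 of 51 members were lost in KO, against 6.45% of all regions: Mymk regions 1, 4 and 7, Cdh15 regions 5, 9 and 12, and Kirrel region 3. None was gained, against 5.41% of all regions. At D1 MR, 16 of 56 were lost, against 17.7%, and 0 were gained, against 1.61%. Of these 16, 5 were at Mymk, 5 at Cdh15, 3 at Kirrel and 1 each at Mymx, Jam2 and Jam3. The D5 counts, 9 of 38 lost in CTL against 10.4% and 20 of 40 in MR against 35.1%, rest on the shallow lists of line 1, and 0 were gained in either (0.0333% and 0.0287% of all regions).

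Of the Mymk regions called in both WT libraries, line 1 called 3 of 3 at D0, 5 of 8 at D1 CTL and 5 of 10 at D1 MR, and line 2 called 0 of 3, 3 of 8 and 2 of 10. For Cdh15, line 1 called 3 of 4, 4 of 7 and 4 of 9, and line 2 called 3 of 4, 3 of 7 and 3 of 9. Over all regions, line 1 called 88.1%, 82.7% and 68.1% in the 3 conditions and line 2 called 65.4%, 75.6% and 56.3%. For Mymx the counts were 4 of 5, 5 of 5 and 4 of 5 in line 1, and 2 of 5, 4 of 5 and 2 of 5 in line 2. For Jam2, line 1 called 4 of 5, 5 of 5 and 5 of 7, and line 2 called 3 of 5, 5 of 5 and 6 of 7. For Kirrel the counts were 9 of 9, 8 of 9 and 9 of 13 in line 1, and 7 of 9, 8 of 9 and 10 of 13 in line 2.

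From D0 to D1 CTL, WT cells gained 8 of 47 members, where 7.44% of all regions were gained. They were Mymk regions 1, 2, 4 and 7, Cdh15 regions 5, 9 and 12, and Kirrel region 19. The 2 lost were Jam2 region 7 and Kirrel region 15 (2.63% of all regions). KO cells gained 1 of 47, Mymx region 6 (1.91% of all), and lost 0 (0.353%). A difference between the genotypes in this step was not tested, and the smallest exact p for D1 against D0 is 0.0556.

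Calls at D5 and D1 were compared within genotype and medium, where 7 members could be tested: Mymx region 1, Jam2 regions 3 and 9, and Kirrel regions 6, 10, 19 and 21. No Mymk or Cdh15 region and 1 Mymx region could thus be tested. Of these, 4 passed with fewer calls at D5, where 66.2% of the 16153 regions tested passed that way and 0.00619% passed with more. The median difference (D5 minus D1) was -0.625 over the 7 and -0.625 over all regions tested. Region 9 of Jam2 was called in all 8 libraries of D1 and in 0 of D5 (adjusted exact p 0.0379). Kirrel region 10 passed with the same adjusted p, being called in 8 libraries of D1 and 1 of D5. Jam2 region 3 and Kirrel region 19 passed with adjusted exact p of 0.042.

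Without the 2 shallow libraries, 0 members passed this comparison, as did 0 of all 14311 regions tested, with 2 and 7166 at an unadjusted p under 0.05. In the reduced lists without the shallow ones, 0 members and 0 of all 13893 passed, with 5 and 7400 at an unadjusted p under 0.05. Without WT replicate 1 or 2 throughout, 0 members passed, as did 0 of all 4734 and 5952 regions tested. Without KO line 1, 2 members and 3512 of all 3898 passed, and without KO line 2, 5 members and 6799 of all 7461. With the KO libraries paired by line, 6 members and 11789 of all 13856 passed. In WT CTL cells, 8 of 45 members were lost from D1 to D5, against 32.9% of all regions, and the 8 held no Mymk or Mymx region. The 1 gained was Mymx region 1 (0.409% of all). In WT MR cells, 14 of 57 were lost, against 21.9%, again with none at Mymk or Mymx, and Mymk region 1 and Mymx region 9 were gained (1.69%). The KO counts rest on the shallow D5 lists of line 1. In KO CTL cells, 6 of 41 members were lost (Mymk regions 6, 9 and 12, Mymx region 6, Jam2 region 9 and Kirrel region 10), against 18% of all regions, and 0 were gained (0%). In KO MR cells, 7 of 32 were lost (Mymk region 10, Mymx region 8, Jam2 regions 3, 4 and 9, and Kirrel regions 8 and 10), against 19.3%, and 0 were gained (0.00188%).

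MR and CTL libraries were compared within each genotype and day. The calls of none of the 68 regions allow a p of 0.05 or lower in the exact permutation test of calls, and of 3909 regions tested elsewhere 0 passed (0%), with 230 at an unadjusted p under 0.05. In WT at D1, MR libraries gained 6 of 56 members (Cdh15 regions 6 and 7, Jam2 regions 7 and 8, Kirrel regions 14 and 15), against 10.2% of all regions. They lost 2, Mymk region 1 and Cdh15 region 12, against 1.75%. In WT at D5 they gained 5 of 39 (Mymk regions 8 and 11, Mymx region 9, Jam2 region 3 and Kirrel region 4), against 27.9%, and lost 0, against 0.494%. In KO at D1 they gained 0 of 42 (0.369% of all) and lost 1, Kirrel region 19 (4% of all).

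Ranks gave the same count for medium. Of 14148 regions called in all libraries of WT D1, WT D5 and KO D1, 10 were members, and 0 of the 10 and 0 of all passed the exact permutation test after adjustment (0%). At an unadjusted p under 0.05 there were 4 of the 10 and 3262 of all. Region 8 of Mymx, 8188 bp beyond the span, had CTL percentiles of 48.0 and 55.4 in WT D1, 46.7 and 45.2 in KO D1 and 36.1 and 43.4 in WT D5. Its MR values were 63.3 and 59.5, 66.4 and 66.8, and 62.0 and 77.3, a difference of 20.1 (p 0.00926, adjusted p 0.115, exact permutation). Region 3 of Cdh15 had a difference of -22.2 with the same p and adjusted p, made up of -13.1 in WT D1, -10.2 in WT D5 and -43.4 in KO D1. Region 6 of Mymk was the only Mymk region of the 10. Its percentiles were 50.2 to 56.5 in WT D1, 3.2 to 28.8 in KO D1 and 68.6 to 83.1 in WT D5.

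At gene ends, taken as a peak within 1 kb of either end, Cdh15, Jam2 and Kirrel were called in all 18 libraries of usual depth. Mymk was called in 10 WT and 4 KO libraries (adjusted exact p 0.0647 over 1850 gene ends) and Mymx in 10 and 3 (0.0639), so neither passed, where 1.62% of gene ends passed with fewer calls in KO. Another 46 genes linked to fusion, in adhesion, in signalling to the actin skeleton and in membrane repair, were read in the same way. Of these, 11 were called in all 18 libraries, among them Itgb1 (an integrin chain), Elmo2 and Trio (activators of Rac), Cdc42 (a small GTPase), Wasl (an activator of actin nucleation), Ptk2 (focal adhesion kinase) and Ehd1 (a membrane trafficking ATPase). Another 26 were called in some, and 9 in none.

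For genotype, 10 of the 46 could be tested, 0 passed and 5 had an unadjusted p under 0.05, where 41.6% of the 1850 gene ends tested had one with fewer calls in KO. For D5 against D1, 6 could be tested and 5 passed with fewer calls at D5, where 63.6% of gene ends did: Ctnnb1 (beta-catenin), Cd9 and Cd81 (tetraspanins), Dock1 (a Rac activator) and Wipf1 (a partner of WASP proteins). Among regulators, Myod1 was called in 17 of the 18 libraries, Mef2d in all 18, and Mef2a, Mef2c and Srf in none. Myog, the gene of myogenin, was called in 8 WT libraries and 0 KO libraries (exact permutation p 0.00154, adjusted p 0.0522). The 8 were all WT libraries of D1 and D5, the same libraries that called Mymk region 4. How many other gene ends or regions share this pattern was not counted, and a link between the genes was not tested. In the list of 6 genes of differentiated muscle that also holds Myog, only Tnnt2 was called in all 18 libraries of usual depth. Genotype could be tested for 4 of the 6 by exact permutation, and 0 passed after adjustment and 4 had an unadjusted p under 0.05, to be read against the same 41.6%.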

How the data were processed

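The deposited files are 1 broadPeak list per library, with peaks called in each library separately; the genome build is GRCm38, per the submitters' processing notes. The aligner, the filters, the transposase shift and the peak caller are not given in the sources used here, so their effect on the lists was not tested. As deposited, each peak carries the authors' score, a fold enrichment (a ratio over background), a −log10 p-value and a −log10 q-value, the lowest −log10 q-value being 1.00. These were used only to rank or filter peaks within a list.

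Peaks sharing 1 bp were merged with Python 3 scripts (numpy, pandas). Genes came from a RefSeq table of GRCm38.p6 without strand. Depth was recovered from the commonest pair of fold and p in each list, on the assumption of a Poisson p and a fold of (k + 1)/(λ + 1). Calls and ranks were compared with two-sided exact permutation tests within strata (7776 arrangements for genotype, 1296 for medium and for D5 against D1, 216 for ranks), with Benjamini-Hochberg adjustment over all regions whose values allow a p of 0.05 or lower, at a threshold of 0.05. The scripts were tested on simulated data. KO libraries of the same line recur in every group, so they are paired by line: all 10 correlations of their deviations from the group means lay between 0.115 and 0.647. Regions were named if called in 4 or more libraries, if they passed a test or if they overlapped a gene start, and of the other fusion-linked genes at most 12. The genes, the lists and the tests were chosen with earlier results of these data known. The gene end lists hold 46 fusion-linked genes, 6 regulators and markers of 8 cell types.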

Additional observations from a re-analysis of the deposited data

Results flagged for a closer look

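Region 3 of Cdh15 moved in opposite directions in the genotypes from D0 to D1 CTL, with both libraries of a group beyond both of the other. On the rank scale of the common regions, where 100 is strongest, its mean percentile changed by -3.7 in WT (94.4 and 95.3 at D0, 89.3 and 93.0 at D1 CTL) and by 12.7 in KO (67.7 and 81.1 at D0, 86.7 and 87.4 at D1 CTL), a difference of 16.3 between the genotypes. This difference was not tested. It was the only one of 30 such relations examined among the 15 regions (D1 CTL against D0 and MR against CTL at D1).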

How the results depend on the processing

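None of the call differences of single regions that were recomputed under the alternatives changed sign. Rank differences of single regions and gene ends were not recomputed one by one. The count of regions with fewer calls in KO was 7 with all libraries and 4 with the 20000 strongest peaks of each list. It was 0 in reduced lists, as over all 9288 regions tested. There the deeper lists were cut to the recovered background of the shallowest library of usual depth, with the 2 shallow lists as deposited. Where a peak had to cover 50% of the region it was 0, as over all 18975 regions tested. Without the D5 libraries it was 0 (2 regions testable), where 1347 of all 7182 passed. It was 3 without the 2 shallow D5 libraries of KO line 1, an alternative chosen after seeing the data, where 2257 of all 19646 passed. In the reduced lists without these 2, also chosen after seeing the data, 2 regions had fewer and 2 had more calls in KO, where 0 had more with all libraries. Leaving out 1 replicate throughout gave 0 to 6. The 4 regions with the 20000 strongest peaks were Mymk regions 6 and 9 and Mymx regions 5 and 6, where 1693 of all 10794 regions tested passed. The 2 shallow lists kept their 644 and 1881 peaks in this setting. In those lists Mymk regions 2, 4 and 7 could not be tested, and Cdh15 region 2 had an adjusted exact p of 0.058. The count with fewer calls at D5, 4, was 0 with the 20000 strongest peaks, 9 in reduced lists, 0 without the 2 shallow libraries and 0 in reduced lists without them, and 0 to 5 when 1 replicate was left out. For D5, 0 of all 5528 regions tested passed with the 20000 strongest peaks, and 10759 of all 18051 in reduced lists. No fit without the KO D5 libraries was run for D5 against D1, since WT alone cannot go below 0.0556. Counts of medium differences and of rank differences stayed at 0 under the alternatives run.

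With a replicate block on the KO lines, which recur across groups, 6 regions had fewer calls at D5 (Kirrel regions 6 and 21 beside the 4), and the counts of medium differences stayed at 0. Genotype was not run with this block. With a block on all replicate numbers, 9 of the 12 testable members passed for genotype, where 5482 of all 8234 regions tested passed. For D5 the count was 2 of 2, where 5943 of all 6792 passed. WT numbers share only a number: their deviations correlated between -0.0296 and 0.045 over 10 pairs.

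The number of regions, 68, was 45 within 2 kb, 116 within 50 kb and 34 with the 20000 strongest peaks. Counts of 2 libraries against 2 moved by more than 1.5 times as follows, with the share of all regions counted the same way in brackets. That share does not depend on the window. Within 2 kb, WT gained 3 in MR at D5 (27.9%) and 5 from D0 to D1 CTL (7.44%). Within 50 kb these were 14 and 13, KO lost 13 at D1 CTL (6.45%), and WT CTL lost 19 from D1 to D5 (32.9%). With a −log10 q of at least 2, KO lost 1 at D1 CTL (6.44%) and WT gained 2 from D0 to D1 CTL (7.11%). With the 20000 strongest peaks, KO gained 0 at D0 (4.61%) and lost 3 at D1 CTL (8.23%) and 2 at D1 MR (8.72%). In these lists WT gained 0 in MR at D1 (7.76%), 0 in MR at D5 (8.21%) and 0 from D0 to D1 CTL (6.4%). WT CTL lost 1 from D1 to D5 there (11.3%). In reduced lists, KO lost 3 at D1 CTL (5.81%) and 4 at D1 MR (16.7%). There WT gained 3 in MR at D1 (9.47%), and WT CTL lost 17 from D1 to D5 (48.3%). With 50% covered, KO gained 1 at D0 (2.18%) and lost 3 at D1 CTL (6.37%). WT then gained 12 in MR at D5 (40.8%) and 4 from D0 to D1 CTL (8.08%). The cause of these shifts was not tested. With 2 libraries a group, no call in the shallow KO line 1 lists at D5 shows that a region was closed.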
